A study of Mus musculus with 7 samples.

Results

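The genes of the lung's collagen, elastic fibre and matrix network were followed through the cells of 7 mice. The set holds 39 of the 31253 measured features, picked by symbol for what they encode, though with earlier results of these data known. It comprises 13 collagen chains, 4 adhesive or matricellular glycoproteins (Fn1, Postn, Sparc, Npnt), 4 small leucine-rich proteoglycans (Dcn, Lum, Bgn, Ogn), 10 genes of elastic fibres and their microfibrils, 3 lysyl oxidases, 4 latent TGF-beta binding proteins and Mgp. The questions were which cells hold the transcripts of each gene, and whether the levels differ once Smad4 can be deleted. SMAD4 is the shared nuclear partner of the receptor-activated SMADs of TGF-beta and BMP signalling, and TGF-beta is a known inducer of many matrix genes. The 3 Smad4fl/fl mice carried floxed Smad4 alleles without Cre. The 4 Smad4iko mice carried the same alleles with Rosa26-creERT2, a tamoxifen-activated Cre expressed from a locus that is active in nearly all cells, so that no cell type is targeted on its own. Every mouse, controls included, received tamoxifen intraperitoneally at 75 mg/kg, 5 times between postnatal days 21 and 26, and controls were littermates. Peripheral lung, away from the hilum with its large airways and vessels, was collected at 8 weeks, digested with collagenases and DNase, and read out cell by cell with a droplet-based 3' RNA assay, 1 library for each mouse. The labels list each library as a sample of its own.

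Levels are given as CPM, the UMIs (unique molecular identifiers, about 1 per captured transcript) of a gene per 1000000 UMIs of the same cell class in the same library, and a level was taken where a library held at least 15 cells of the class. The libraries held 46449235 to 66557262 UMIs, and 49711 of 55671 barcodes were kept as cells, 6384 to 8140 per library. Libraries shared at most 29 barcodes with another library. Smad4fl/fl 3 and Smad4iko 3 are female by their RNA, with Xist at 866 and 847 CPM and no UMI of the Y-linked Ddx3y, and the other 5 libraries are male. Library Smad4fl/fl 1 stands apart: it holds 654 of the alveolar fibroblasts, where each of the other libraries holds 0 to 22, and it is the only library with enough pericytes, Mmp3-high fibroblasts, AT1 cells, arterial or lymphatic endothelium for a level. Levels in those 5 classes are therefore 1 library's, with exact Poisson 95% intervals that cover counting error only. Smad4iko 3 and 4 held 14 and 32 adventitial, 5 and 10 Adh7-high and 0 and 1 alveolar fibroblasts. Smad4 itself was at 88.4, 101 and 120.3 CPM in general capillary endothelium of Smad4fl/fl 1, 2 and 3 and at 82.9, 68.5, 77.4 and 75.5 CPM in Smad4iko 1 to 4, without overlap. In Car4-high capillary endothelium Smad4 was at 73.5, 66.1 and 83.6 CPM and at 69.2, 68.4, 53.6 and 68.5 CPM in the same order, which overlap. In adventitial fibroblasts it was at 53.6, 113 and 89.6 CPM in Smad4fl/fl 1 to 3 and 48.1, 58.03 and 40.95 CPM in Smad4iko 1, 2 and 4, which overlap. The Smad4iko mean was the lower one in 7 of 7 structural classes and in 23 of all 23 classes with 2 libraries of each genotype. Every Smad4iko library lay below every control in 2 of these 7 and in 9 of the 23. The 3' tags can lie outside the deleted exons, so the remaining transcript does not count the cells that kept the gene.

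Cell classes were built from clusters made without the 39 genes and named from markers that hold none of them. Inmt and Tcf21, markers of alveolar fibroblasts, were at 9324 and 989 CPM there against 2371 and 205 CPM in adventitial fibroblasts. Pi16, Ccl11 and Serpinf1, markers of the adventitial cells that sheathe airways and vessels, were at 1395, 1045 and 1470.0 CPM there and at 0.440, 3.08 and 2.42 CPM in alveolar fibroblasts. Another fibroblast class led by Adh7 and one led by Mmp3 carried markers of several mesenchymal types and are called by their leading gene. Cells high in Hhip and Aspn, markers of peribronchial fibroblasts or myofibroblasts, are called Hhip-high cells. Smooth muscle cells (Acta2 at 12369 CPM), pericytes (Higd1b at 2109 CPM), general capillary endothelium (gCap, Gpihbp1 at 1542 CPM) and Car4-high capillary endothelium (aCap, Car4 at 2881 CPM) carried their own markers. No mesothelial class was named: all kept cells together held 6 UMIs of Msln, 2 of Wt1, 2 of Upk1b, 14 of Lrrn4 and 33 of Upk3b. The mesothelial markers Rspo1 and Nkain4 were less scarce, at 184 and 2497 UMIs, with 2 or more in 26 and 503 cells. The share of mesothelium in matrix expression is not given. Clusters with markers of 2 cell types at high UMI counts stayed unnamed. Some shallow clusters did so too, among them a structural one of 355 cells with a median of 970 UMIs. The unnamed clusters together held 59.9% of all Postn UMIs, 46.7% of Npnt and 46.5% of Col4a1, so a share by class leaves these out of every named class.

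Collagens I, III and V assemble into the striated fibrils that carry tension, collagen IV forms the sheet of basement membranes, and collagen VI forms beaded filaments around cells. Elastic fibres consist of crosslinked elastin on a scaffold of fibrillin microfibrils, joined by fibulins and crosslinked by lysyl oxidases, and let the alveolar wall and the vessels recoil with each breath. Latent TGF-beta binding proteins tether the inactive growth factor to that scaffold, and small leucine-rich proteoglycans set the spacing of the fibrils.

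The DNA just upstream of 4 of the genes is shown because these genes mark the division between both main fibroblast classes described next: Col3a1 and Fbln1 were higher in adventitial fibroblasts and Col13a1 and Npnt in alveolar fibroblasts in all 4 libraries that hold both. Each is the 250 bases before the RefSeq start on build GRCm38.p6, read 5' to 3' on the strand of the gene, with matches on either strand in capitals. The capitals mark the TATA box, searched as TATAAA, the CCAAT box, and the short element that SMAD proteins bind, searched as CAGAC. On the other strand the SMAD element reads GTCTG. The windows are chr1:45311288-45311537 on the plus strand, chr15:85205699-85205948 on the plus strand, chr10:61979109-61979358 on the minus strand and chr3:132950292-132950541 on the minus strand.
Col3a1: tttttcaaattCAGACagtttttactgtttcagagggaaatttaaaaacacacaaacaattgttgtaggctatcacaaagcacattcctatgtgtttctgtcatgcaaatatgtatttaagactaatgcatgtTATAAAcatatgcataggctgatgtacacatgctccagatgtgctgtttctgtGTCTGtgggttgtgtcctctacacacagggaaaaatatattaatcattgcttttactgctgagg
Fbln1: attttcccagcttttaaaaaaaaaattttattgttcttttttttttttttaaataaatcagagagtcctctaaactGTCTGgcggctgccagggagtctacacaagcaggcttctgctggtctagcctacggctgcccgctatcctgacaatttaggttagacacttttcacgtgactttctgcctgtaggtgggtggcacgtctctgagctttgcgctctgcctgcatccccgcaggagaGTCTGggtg
Col13a1: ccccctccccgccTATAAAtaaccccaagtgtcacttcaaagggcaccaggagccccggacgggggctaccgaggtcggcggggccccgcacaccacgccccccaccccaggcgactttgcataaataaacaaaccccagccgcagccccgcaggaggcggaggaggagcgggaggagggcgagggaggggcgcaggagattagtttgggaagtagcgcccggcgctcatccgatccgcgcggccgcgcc
Npnt: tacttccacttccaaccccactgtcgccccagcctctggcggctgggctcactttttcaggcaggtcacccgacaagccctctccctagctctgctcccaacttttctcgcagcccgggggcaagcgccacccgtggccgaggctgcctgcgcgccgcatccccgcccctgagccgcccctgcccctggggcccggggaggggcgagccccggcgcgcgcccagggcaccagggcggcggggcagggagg
Col3a1 holds 1 TATAAA and 2 CAGAC matches, Fbln1 2 CAGAC matches, Col13a1 1 TATAAA, and the Npnt window none of the letters searched. RefSeq entries were matched for 26 of the 39 genes. Of these, 16 hold CAGAC in at least 1 of their windows, 4 hold TATAAA, 7 hold CCAAT and 0 hold GTCTAGAC, the palindrome of the SMAD element. Of all 32851 windows of the same length, 42.2% hold CAGAC, 12.4% TATAAA, 33.8% CCAAT and 0.167% GTCTAGAC. A gene can have several windows, so the counts per gene and the shares per window are not on 1 scale, and a match is a description of the letters only.

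The 39 genes took their largest share of transcripts in fibroblasts. The genes made up 8.09% ± 1.81 (SD, n = 6) of the UMIs of adventitial fibroblasts, 7.29% ± 1.19 (SD, n = 5) in Adh7-high fibroblasts, 5.06% ± 0.453 (SD, n = 4) in alveolar fibroblasts and 3.51% ± 0.638 (SD, n = 5) in Hhip-high cells. Mmp3-high fibroblasts stood at 7.37% in their 1 library. Smooth muscle cells followed at 1.86% ± 0.134 (SD, n = 3), pericytes at 1.96% and arterial endothelium at 2.41%. Capillary endothelium stood lower, at 0.421% ± 0.0778 (SD, n = 7) in gCap and 0.269% ± 0.0433 (SD, n = 7) in aCap. T cells, a rough guide to free RNA, held 0.00734% ± 0.0101 (SD, n = 7), and their highest library was Smad4fl/fl 1. Ranked over 30 classes in that library, 29 of the 39 genes had their highest level in 1 of the 4 fibroblast classes: 11 in adventitial, 11 in Adh7-high, 6 in alveolar and 1 in Mmp3-high fibroblasts. Pericytes led for 4 genes, Hhip-high cells and arterial endothelium for 2 each, and smooth muscle and aCap for 1 each. For 8 of the 39 (Col5a2, Eln, Mfap2, Emilin1, Efemp2, Loxl1, Loxl2 and Ltbp4) the interval of the first class overlapped that of the next. In the mean of the other libraries 31 of the 39 genes were highest in a fibroblast class. The genes that moved include Fn1, to interstitial macrophages, Col4a1 and Col4a2, to aCap, Postn, to smooth muscle cells, and Fbln5, to venous endothelium. Classes with a level in Smad4fl/fl 1 alone, such as pericytes, drop out of that mean.

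**Figure D1:**
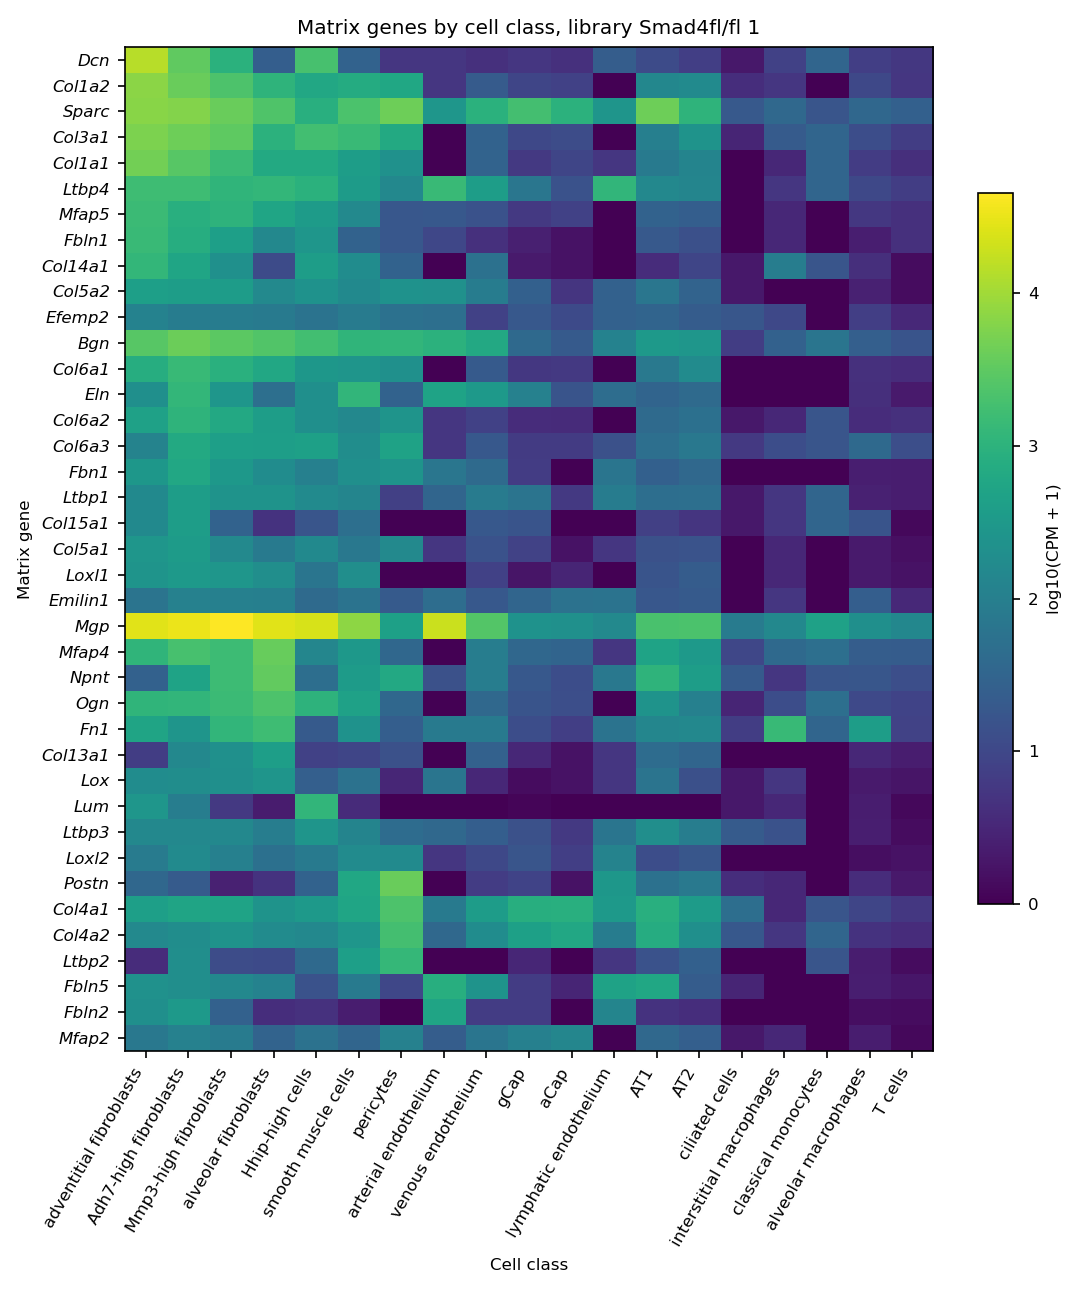
Levels of the 39 matrix genes (one gene per line) in 19 cell classes of library Smad4fl/fl 1, as log10 of CPM + 1 by colour; lighter is higher. Dcn and the collagen I and III chains are bright in adventitial and Adh7-high fibroblasts, Npnt and Col13a1 in alveolar fibroblasts, Col4a1, Col4a2, Postn and Ltbp2 in pericytes, and the T cell column is dark, with Mgp its highest at 139 CPM.

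Collagens I and III were highest in adventitial fibroblasts. Col1a1, the alpha 1 chain of collagen I, stood at 4629 ± 1984 CPM (SD, n = 6), against 3153 ± 1434 CPM (SD, n = 5) in Adh7-high, 685 ± 121 CPM (SD, n = 4) in alveolar fibroblasts, 582 ± 105 CPM (SD, n = 5) in Hhip-high cells and 384 ± 20.8 CPM (SD, n = 3) in smooth muscle. By library, Col1a1 was at 4587, 5953 and 2631 CPM in Smad4fl/fl 1, 2 and 3 and 4180.2, 2657 and 7766 CPM in Smad4iko 1, 2 and 4. The adventitial libraries spread over a wide range among themselves, with Smad4iko 4 the highest and Smad4fl/fl 3 the lowest, and every one of them lay above every alveolar library. Col1a2, the partner chain, was likewise highest there, from 7529.9 ± 2607 CPM (SD, n = 6) in adventitial to 1177 ± 161 CPM (SD, n = 4) in alveolar fibroblasts. Col3a1, the single chain of collagen III, was at 6959 ± 3663 CPM (SD, n = 6) in adventitial, 2214 ± 690.3 CPM (SD, n = 5) in Hhip-high cells and 1506 ± 471 CPM (SD, n = 4) in alveolar fibroblasts, where the last pair overlap. The collagen V chains, which start fibrils and limit their width, split from each other. Col5a1 was highest in Adh7-high fibroblasts at 391 ± 66.2 CPM (SD, n = 5), and Col5a2 was at 395 ± 137 CPM (SD, n = 6) in adventitial and 334 ± 67.8 CPM (SD, n = 5) in Adh7-high fibroblasts, which overlap. Fibroblast classes held 78.2% of all Col1a1 UMIs and 73.96% of those of Col3a1 over the 7 libraries. In T cells of the other 6 libraries Col1a1 did not exceed 0.762 CPM.

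Collagens that sit on fibrils or in the cell membrane separated the fibroblast classes more sharply. Col14a1, a fibril-associated collagen, was at 1394 ± 125 CPM (SD, n = 6) in adventitial fibroblasts and at 10.8, 7.05, 22.1 and 30.7 CPM in the alveolar fibroblasts of Smad4fl/fl 1 and 2 and Smad4iko 1 and 2. Col15a1, a collagen that links basement membranes to the fibrils below, was highest in Adh7-high fibroblasts at 485 ± 105 CPM (SD, n = 5), with 227 ± 97 CPM (SD, n = 6) in adventitial fibroblasts and 40.5 ± 13.6 CPM (SD, n = 5) in venous endothelium. In alveolar fibroblasts Col15a1 was at 3.85 to 15.3 CPM. Both genes were thus far lower in alveolar fibroblasts in every library. Col13a1, a transmembrane collagen, had the reverse pattern. It was at 407, 352, 370.5 and 450.2 CPM in alveolar fibroblasts of those 4 libraries and at 5.96, 0, 0.740 and 4.94 CPM in their adventitial fibroblasts, with 212 CPM (95% interval 191 to 234) in Mmp3-high and 86.9 ± 43.3 CPM (SD, n = 5) in Adh7-high fibroblasts.

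The 3 chains of collagen VI did not share 1 order. Col6a1 and Col6a2, neighbours on chromosome 10 at chr10:76708792-76726168 and chr10:76595762-76623630 (GRCm38), were highest in Adh7-high fibroblasts at 1331 ± 246 CPM (SD, n = 5) and 941 ± 144 CPM (SD, n = 5). Col6a1 was at 738 ± 154 CPM (SD, n = 6) in adventitial and 645 ± 46.04 CPM (SD, n = 4) in alveolar fibroblasts, which overlap. Col6a3, the long chain that completes the trimer, was again highest in Adh7-high fibroblasts at 595 ± 157 CPM (SD, n = 5), but was at 403, 656, 304 and 491 CPM in alveolar against 121, 154, 107 and 101 CPM in adventitial fibroblasts of Smad4fl/fl 1 and 2 and Smad4iko 1 and 2. The alveolar level was the higher one in each of the 4. UMIs of Col6a3 per UMI of Col6a1 were 0.157 ± 0.0103 (SD, n = 6) in adventitial, 0.442 ± 0.0507 (SD, n = 5) in Adh7-high and 0.712 ± 0.186 (SD, n = 4) in alveolar fibroblasts, and 1.23 ± 0.277 (SD, n = 5) in Hhip-high cells. The 6 adventitial values lay between 0.144 and 0.169, below every value of the other 3 classes. Pericytes gave 2.22 in their 1 library. The number compares 1 ratio between classes and is not the make-up of the protein, since capture differs between genes.

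The other chain pairs varied less. UMIs of Col1a1 per UMI of Col1a2 were 0.580 ± 0.0384 (SD, n = 4) in alveolar and 0.601 ± 0.0672 (SD, n = 6) in adventitial fibroblasts, although the level of both chains differed several-fold between them. Hhip-high cells stood higher at 0.905 ± 0.131 (SD, n = 5) and smooth muscle cells lower at 0.489 ± 0.0333 (SD, n = 3). For Col5a1 per Col5a2 the values were 0.505 ± 0.0320 (SD, n = 4) in alveolar, 0.821 ± 0.121 (SD, n = 6) in adventitial and 1.19 ± 0.179 (SD, n = 5) in Adh7-high fibroblasts. For Col6a1 per Col6a2 the fibroblast and Hhip-high classes with 2 or more libraries had means of 1.42 ± 0.187 (SD, n = 5) to 1.64 ± 0.0920 (SD, n = 6).

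Basement membrane collagen was divided among capillaries, fibroblasts, pericytes and alveolar epithelium. Col4a1 and Col4a2 lie head to head on chromosome 8, at chr8:11198423-11312826 on the minus strand and chr8:11312805-11449287 on the plus strand, and their annotated starts overlap. In Smad4fl/fl 1 pericytes led for both, with Col4a1 at 2293 CPM (95% interval 2156 to 2436) and Col4a2 at 1803 CPM (95% interval 1682 to 1930.4). AT1 cells, the thin epithelium of gas exchange, followed with 867 CPM (95% interval 812 to 925) and 768 CPM (95% interval 716 to 822). In both capillary classes all 7 libraries gave a level: Col4a1 was at 906 ± 188 CPM (SD, n = 7) in gCap and 912 ± 207 CPM (SD, n = 7) in aCap, and Col4a2 at 519.5 ± 119 CPM (SD, n = 7) and 614 ± 126 CPM (SD, n = 7). Smad4fl/fl 3 was the lowest library for both genes in both classes. UMIs of Col4a1 per UMI of Col4a2 were 1.48 ± 0.0700 (SD, n = 7) in aCap, 1.76 ± 0.166 (SD, n = 7) in gCap and 2.51 ± 0.763 (SD, n = 6) in adventitial fibroblasts. Endothelium held 33.7%, fibroblasts 9.31% and epithelium 4.44% of all Col4a1 UMIs. Hhip-high cells, smooth muscle cells and pericytes together held 4.40%, and the unnamed clusters 46.5%.

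Pericytes and smooth muscle also carried a pair of matricellular genes. Postn, which encodes periostin, a crosslinking partner of collagen and fibronectin, was at 3842 CPM (95% interval 3665 to 4026) in pericytes and at 672 ± 92.7 CPM (SD, n = 3) in smooth muscle, and at 0 to 113 CPM in alveolar fibroblasts. Ltbp2, the one family member that does not bind latent TGF-beta and associates with fibrillin, was at 1260.3 CPM (95% interval 1159 to 1368) in pericytes, 242 ± 154 CPM (SD, n = 3) in smooth muscle and 181 ± 19.7 CPM (SD, n = 5) in Adh7-high fibroblasts. Sparc, a collagen-binding calcium protein, was spread more widely. It was at 6414 ± 3270.3 CPM (SD, n = 6) in adventitial and 5998 ± 1881 CPM (SD, n = 5) in Adh7-high fibroblasts, at 4308 CPM (95% interval 4120.1 to 4503) in pericytes and 4192 CPM (95% interval 4069.5 to 4317) in AT1 cells, and 19.2% of its UMIs came from endothelium.

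A pair of neighbouring proteoglycan genes parted between cell types. Dcn and Lum lie side by side on the plus strand of chromosome 10, at chr10:97479609-97518143 and chr10:97565128-97572703. Dcn, which encodes decorin, was at 13933, 14747 and 17872 CPM in Smad4fl/fl 1, 2 and 3 and 15146, 12887 and 14117 CPM in Smad4iko 1, 2 and 4 in adventitial fibroblasts, against 23.9, 0, 101 and 30.7 CPM in alveolar fibroblasts of Smad4fl/fl 1 and 2 and Smad4iko 1 and 2. Fibroblasts held 88.5% of its UMIs, the largest share among the 39 genes. Lum, which encodes lumican, was highest in Hhip-high cells at 1458 ± 264 CPM (SD, n = 5), with 499 ± 175 CPM (SD, n = 6) in adventitial fibroblasts, and 3 of the 4 libraries with alveolar fibroblasts held 0 UMIs of it there. Bgn, encoding biglycan, was at 3985 ± 376 CPM (SD, n = 5) in Adh7-high fibroblasts. It stood at 2639 ± 125 CPM (SD, n = 4) in alveolar and 2629.7 ± 433 CPM (SD, n = 6) in adventitial fibroblasts, which overlap. Ogn, encoding osteoglycin, was highest in alveolar fibroblasts at 2263 ± 169 CPM (SD, n = 4) and was at 1172 ± 139.9 CPM (SD, n = 6) in adventitial fibroblasts, where no library reached the lowest alveolar one.

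Elastin was most abundant outside both main fibroblast classes. Eln, the gene of tropoelastin (chr5:134702593-134747323, minus strand), was at 1206, 2484 and 1016 CPM in Smad4fl/fl 1, 2 and 3 and 795 and 774 CPM in Smad4iko 1 and 2 in Adh7-high fibroblasts. In smooth muscle it was at 1136, 688 and 917 CPM in Smad4fl/fl 1, Smad4fl/fl 2 and Smad4iko 1, which overlaps the Adh7-high range. Venous endothelium held 506 ± 187 CPM (SD, n = 5), arterial endothelium 497 CPM (95% interval 409 to 598), adventitial fibroblasts 319.8 ± 63.3 CPM (SD, n = 6) and gCap 156 ± 61.5 CPM (SD, n = 7). Alveolar fibroblasts held 68.9 ± 26.1 CPM (SD, n = 4), the lowest of the 4 fibroblast classes. Endothelium gave 24.7% of all Eln UMIs and fibroblasts 37.3%.

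The microfibril and fibulin genes did not share 1 order. Fbn1, encoding fibrillin-1, the backbone of the microfibril, was at 494 ± 70.4 CPM (SD, n = 5) in Adh7-high, 308 ± 60.9 CPM (SD, n = 6) in adventitial and 235 ± 43.3 CPM (SD, n = 4) in alveolar fibroblasts. Mfap5, a microfibril glycoprotein, was highest in adventitial fibroblasts at 1550.0 ± 258 CPM (SD, n = 6). Mfap4, whose protein binds elastin and collagen, was highest in alveolar fibroblasts at 3836 ± 1699 CPM (SD, n = 4). Mfap2, the relative of Mfap5, was instead highest in the capillaries, at 183 ± 49.7 CPM (SD, n = 7) in gCap and 179 ± 82.6 CPM (SD, n = 7) in aCap. Fbln1 followed the adventitial pattern at 1678 ± 193 CPM (SD, n = 6) against 208 ± 40 CPM (SD, n = 4) in alveolar fibroblasts. Fbln5, which brings elastin to the microfibril, was at 824 CPM (95% interval 709 to 952) in arterial endothelium, 588 CPM (95% interval 542 to 636) in AT1 cells, 486 CPM (95% interval 399 to 587) in lymphatic endothelium and 395 ± 183 CPM (SD, n = 5) in venous endothelium. Fbln2 was at 510.3 CPM (95% interval 421 to 613) in arterial endothelium and 402 ± 104 CPM (SD, n = 5) in Adh7-high fibroblasts, and at 22 ± 27.01 CPM (SD, n = 5) in venous endothelium. Efemp2, or fibulin-4, was highest in adventitial fibroblasts at 109 ± 27.9 CPM (SD, n = 6) and Emilin1, a glycoprotein at the elastin-microfibril interface, in Adh7-high fibroblasts at 122 ± 23.4 CPM (SD, n = 5). Neither stood clear of the next fibroblast class.

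The crosslinking enzymes did not follow their substrates in 1 order. Lox, the main lysyl oxidase, was highest in alveolar fibroblasts at 210.1 ± 62.8 CPM (SD, n = 4), with 135 ± 41.1 CPM (SD, n = 6) in adventitial fibroblasts, and the classes overlap. Loxl1, which is needed for elastin crosslinking, was at 395 ± 128 CPM (SD, n = 5) in Adh7-high, 370.1 ± 94.4 CPM (SD, n = 6) in adventitial and 224 ± 18.8 CPM (SD, n = 4) in alveolar fibroblasts. Loxl2, linked to collagen IV crosslinking, was at 171 CPM (95% interval 135 to 213) in pericytes, 160.5 ± 28 CPM (SD, n = 5) in Adh7-high fibroblasts and 51.9 to 171 CPM over 3 libraries of smooth muscle. Among the latent TGF-beta binding proteins, Ltbp4, which also guides elastin assembly, was at 1961 ± 356 CPM (SD, n = 6) in adventitial, 1814 ± 405 CPM (SD, n = 5) in Adh7-high and 1315 ± 233 CPM (SD, n = 4) in alveolar fibroblasts and at 1437 CPM (95% interval 1284 to 1603) in arterial endothelium. Ltbp1 was at 368 ± 39.6 CPM (SD, n = 5) in Adh7-high and 286 ± 36.4 CPM (SD, n = 4) in alveolar fibroblasts, above adventitial cells at 181 ± 31.5 CPM (SD, n = 6). Ltbp3 led in Hhip-high cells at 256 ± 76.4 CPM (SD, n = 5). Mgp, whose protein keeps matrix from calcifying, was highest in Mmp3-high fibroblasts at 44901 CPM (95% interval 44592 to 45211). It was at 28911 ± 5619 CPM (SD, n = 5) in Adh7-high, 24720.2 ± 6089.7 CPM (SD, n = 4) in alveolar and 22698 ± 6239 CPM (SD, n = 6) in adventitial fibroblasts and 20203 ± 5045 CPM (SD, n = 5) in Hhip-high cells. Smooth muscle cells at 5734 ± 1282 CPM (SD, n = 3) and pericytes at 433 CPM (95% interval 375 to 498) had less, and arterial endothelium was at 18806 CPM (95% interval 18241 to 19383).

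Within the 4 libraries that held at least 15 cells of both classes (Smad4fl/fl 1 and 2, Smad4iko 1 and 2), 19 of the 39 genes were higher in adventitial fibroblasts in all 4, 9 were higher in alveolar fibroblasts in all 4, and 11 changed side. Of all 5868 genes with a mean of at least 20 CPM, 18% were higher in adventitial and 32.3% in alveolar fibroblasts in all 4. Of the 38 matrix genes past that level these shares were 50% and 23.7%. The classes come from clusters of these same cells, so no test was made. The adventitial side held Col1a1, Col1a2, Col3a1, Col4a1, Col5a1, Col5a2, Col14a1, Col15a1, Sparc, Lum, Dcn, Eln, Fbln1, Fbln2, Fbln5, Mfap5, Loxl1, Ltbp3 and Ltbp4. The alveolar side held Col4a2, Col6a3, Col13a1, Fn1, Ogn, Mfap4, Emilin1, Ltbp1 and Npnt. The widest gaps on the alveolar side were those of Col13a1, given above, and of Npnt, the gene of nephronectin, a ligand of integrin alpha 8. Npnt was at 26.8, 18.8, 20.7 and 30.9 CPM in adventitial fibroblasts against 3488, 3129.6, 3559 and 3213 CPM in alveolar fibroblasts, in the order Smad4fl/fl 1, Smad4fl/fl 2, Smad4iko 1 and Smad4iko 2. Fbln1, at the other side, was at 1446, 1962, 1785 and 1501 CPM in adventitial fibroblasts against 150.1, 219, 243 and 220.0 CPM in alveolar fibroblasts in the same order. Both genes parted the classes in every library with a wide gap. Fn1, encoding fibronectin, was at 526, 248, 547 and 674 CPM in adventitial fibroblasts against 1619, 2298, 1561 and 1305 CPM in alveolar fibroblasts. Col4a1 and Col4a2, which share a start region, fell on opposite sides, but both came close to 0: the log2 ratio nearest to it was 0.00779 for Col4a1 and -0.0821 for Col4a2.

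**Figure D2:**
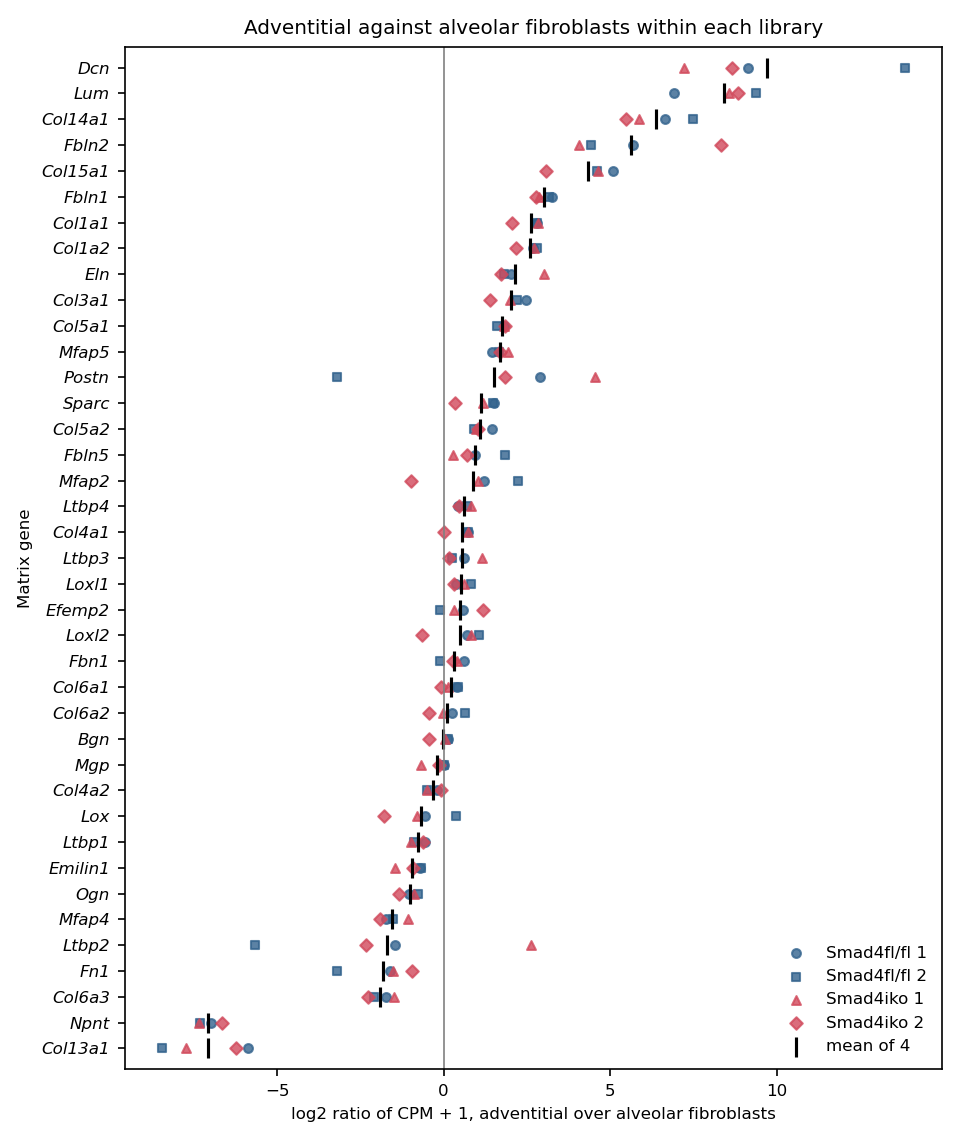
Log2 ratio of CPM + 1 in adventitial over alveolar fibroblasts, 1 mark per library for the 4 libraries with both classes and a black tick at their mean; one gene per line. Dcn, Lum and Col14a1 lie farthest to the adventitial side and Npnt and Col13a1 farthest to the alveolar side, and the marks of Postn and Ltbp2 fall on both sides of 0.

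Part of the UMIs of several genes came from leukocytes. Of all Fn1 UMIs, 77.1% came from leukocytes and blood cells and 12.3% from fibroblasts. For Emilin1 these shares were 41.9% and 19.4%, for Efemp2 21.6% and 33.3% and for Col6a3 20.4% and 39.8%. For Emilin1, Efemp2 and Col6a3 the levels behind these shares were low and spread over many cells. In alveolar macrophages Emilin1 was at 28.05 ± 11.02 CPM (SD, n = 7), Efemp2 at 6.17 ± 1.52 CPM (SD, n = 7) and Col6a3 at 17.1 ± 11.5 CPM (SD, n = 7). Fn1 was not low in all leukocytes: in the mean of libraries its highest class was interstitial macrophages. In interstitial macrophages Fn1 was at 1343, 5556 and 319 CPM in Smad4fl/fl 1, 2 and 3 and 271, 370.0, 1400.1 and 5205 CPM in Smad4iko 1, 2, 3 and 4, a range from Smad4iko 1 to Smad4fl/fl 2 that crosses both genotypes. Classical monocytes held 32.3, 1517 and 965 CPM in Smad4fl/fl 1, 2 and 3 and 2117, 2147, 1844 and 1624 CPM in Smad4iko 1, 2, 3 and 4, with the value of Smad4fl/fl 1 resting on 28 cells and 2 UMIs. Alveolar macrophages were even, between 392 and 573 CPM over 7 libraries, and T cells were between 1.60 and 8.02 CPM. Npnt was at 30.9, 27.9 and 89.9 CPM in Smad4fl/fl 1, 2 and 3 and 80.5, 69.1, 59.4 and 61.4 CPM in Smad4iko 1, 2, 3 and 4 in gamma-delta T cells and 64.4 ± 19.8 CPM (SD, n = 7) in ILC2, against 0.133 to 11.8 CPM in other T cells. Platelets of the 4 Smad4iko libraries, the only ones with 15 of them, held Sparc at 938, 759, 933 and 1958 CPM, Col4a1 at 216, 241, 387 and 625 CPM and Ltbp1 at 309, 370.1, 145 and 113 CPM. Alveolar macrophages carried Col15a1 at 15, 13.3 and 11.2 CPM in Smad4fl/fl 1, 2 and 3 and 6.72, 8.37, 6.53 and 10.3 CPM in Smad4iko 1, 2, 3 and 4, low but above the T cells of every library, whose highest was 0.339 CPM.

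Summed over whole libraries, the 39 genes were highest and lowest where most and fewest fibroblasts were caught. They made up 14412, 2638 and 2068 CPM of all kept cells in Smad4fl/fl 1 to 3 and 4693, 2849.7, 716 and 2373 CPM in Smad4iko 1 to 4, while fibroblasts were 12.9, 1.09 and 1.79% and 2.84, 2.11, 0.233 and 0.659% of the kept cells in the same order. Smad4fl/fl 1 was far above the rest and Smad4iko 3 the lowest in both measures. The Smad4fl/fl mean was 6373 CPM, and 2353 CPM without Smad4fl/fl 1, below the Smad4iko mean of 2658 CPM. Fewer fibroblasts and less matrix RNA per cell cannot be told apart at that level, so genotypes are compared within classes only. T cells had the same extremes: there the 39 genes summed to 302, 40.9 and 28.6 CPM in Smad4fl/fl 1 to 3 and 52.1, 34.5, 23.2 and 32.7 CPM in Smad4iko 1 to 4, and Mgp alone to 139, 5.05 and 5.10 and 13.9, 8.96, 2.52 and 4.05 CPM. The T cell sums of the 6 other libraries lay between 23.2 and 52.1 CPM, so a low level in a class of Smad4fl/fl 1 is set beside the T cell level. Not every gene had its highest T cell level in Smad4fl/fl 1. Col6a3 was at 12.1 CPM there and at up to 15.6 CPM in the other libraries, and Fn1 at 7.13 and up to 8.02 CPM. The part of the T cells' own transcripts in these sums was not tested.

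**Figure D3:**
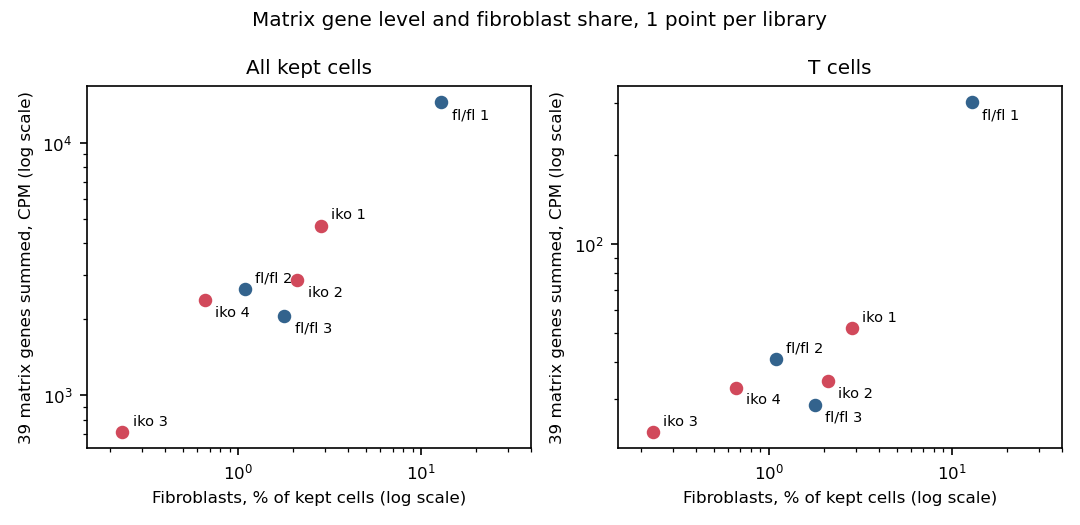
Summed level of the 39 matrix genes in CPM (log axis) against the percentage of fibroblasts among kept cells (log axis), 1 point per library, for all kept cells (left) and for T cells (right). Smad4fl/fl 1 lies at the upper right of both panels with 12.9% fibroblasts, and Smad4iko 3 at the lower left with 0.233%.

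The genotypes were compared within 23 classes that had at least 2 libraries of each genotype, 7 of them structural: alveolar, adventitial and Adh7-high fibroblasts, Hhip-high cells, gCap, aCap and venous endothelium. None of the 39 genes passed the threshold in any of them. Of 233 tests of matrix genes 0 had an adjusted p under 0.05 with edgeR's quasi-likelihood test and Benjamini-Hochberg adjustment within the class, where 0.0213% of all 145587 tests did, and DESeq2 called 1. At an unadjusted p under 0.05 edgeR had 31 of the 233, or 13.3%, against 6.58% of all tests. In the structural classes it was 0 of 175 tests, against 0.0215% of 37271. At an unadjusted p under 0.05 there were 14 of the 175, or 8%, against 5.21% of all structural tests. The design could miss changes of 2-fold: in simulated counts 70% of 2-fold and 93% of 4-fold changes were recovered in gCap, 20% and 85% in adventitial fibroblasts and 39% and 80% in alveolar fibroblasts, and 10 of 173, 5 of 110 and 7 of 126 calls there were false. The differences that follow are log2 changes of Smad4iko over Smad4fl/fl, and none of them passed in the full set of libraries.

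By class, the signs leaned to one side in Adh7-high fibroblasts. In Adh7-high fibroblasts (Smad4iko 1 and 2 against 3 Smad4fl/fl libraries) 3 of 38 tested genes were higher and 35 lower in Smad4iko, with a median of -0.28 where all 4400 genes had a median of -0.01. In adventitial fibroblasts 22 of 37 tested genes were higher and 15 lower, with a median log2 change of 0.02, in alveolar fibroblasts 17 of 31 tested genes were higher and 14 lower, with a median log2 change of 0.03, and in Hhip-high cells 15 of 31 tested genes were higher and 16 lower, with a median log2 change of -0.01. In gCap 13 of 19 tested genes were higher and 6 lower, with a median log2 change of 0.17, in aCap 4 of 5 tested genes were higher and 1 lower, with a median log2 change of 0.33, and in venous endothelium 10 of 14 tested genes were higher and 4 lower, with a median log2 change of 0.34. The Adh7-high class joins a cluster with a median of 13317 UMIs per cell and one with 1458. The shallow one holds 21, 4 and 12 of 88, 22 and 20 cells in Smad4fl/fl 1, 2 and 3 and 6 and 6 of 29 and 28 in Smad4iko 1 and 2, so its share is highest in Smad4fl/fl 3. Within the deep one, which leaves Smad4fl/fl 1 and 2 and Smad4iko 1 and 2, the mean CPM in Smad4iko was higher for 6 and lower for 32 of the 38 genes. The share of all genes that were lower in that cluster was not counted. In the whole class 2 of the 38 had an unadjusted edgeR p under 0.05, against 2.16% of all 4400 genes. The median over all tested genes was farthest from 0 in venous endothelium, at 0.03. The called share of all genes was 0.0227% in Adh7-high, 0.0267% in adventitial and 0.0287% in alveolar fibroblasts, 0.011% in gCap, 0.0568% in aCap and 0% in venous endothelium and in Hhip-high cells, and 0 matrix genes were called in each. Genes of 1 class share their libraries, so the counts of signs are descriptions.

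**Figure D4:**
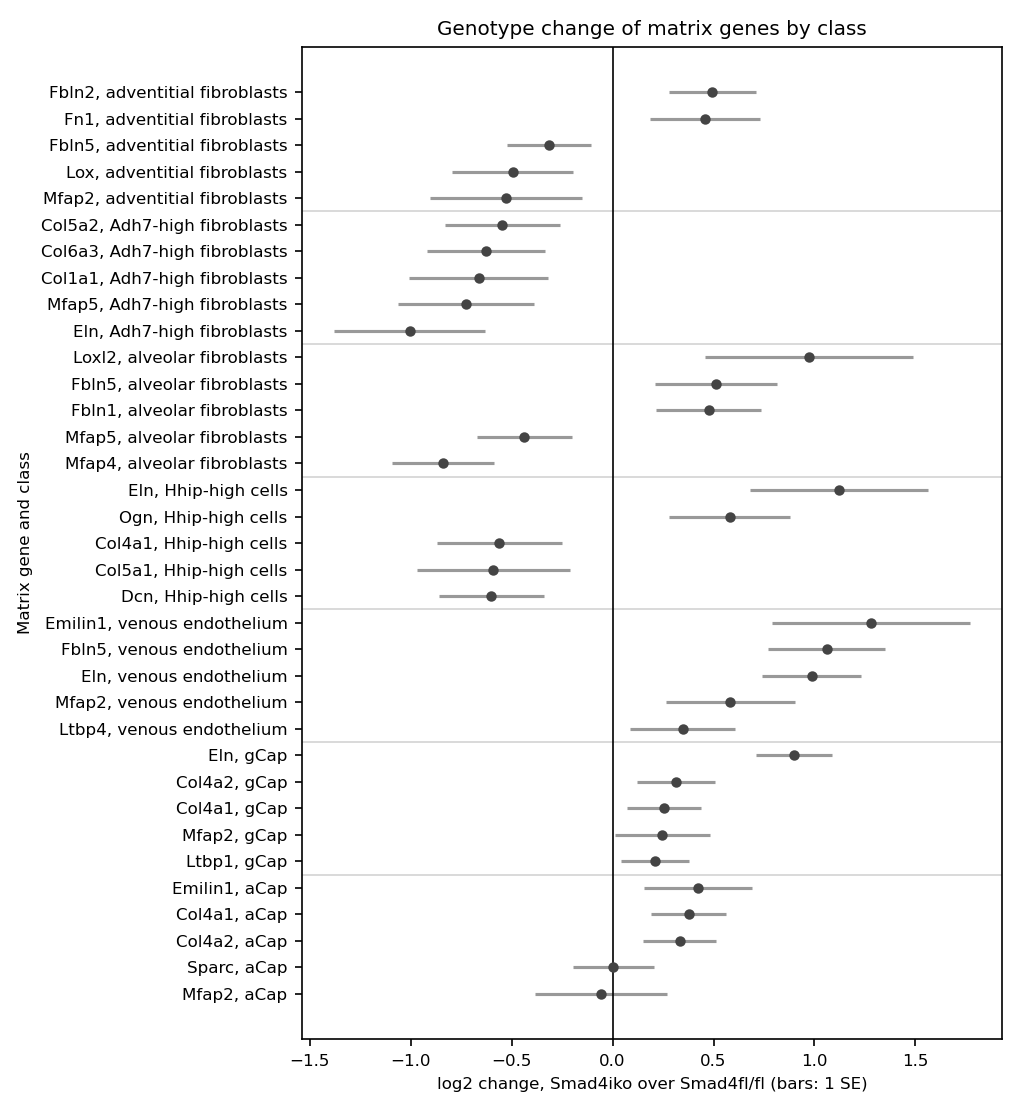
Log2 change of Smad4iko over Smad4fl/fl with 1 standard error for up to 5 matrix genes per structural class, those with the smallest p among genes well expressed in the class. Eln lies near 1 in gCap, venous endothelium and Hhip-high cells and near -1 in Adh7-high fibroblasts, and no adjusted p is under 0.05.

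Elastin gave the smallest unadjusted p of the 175 structural tests. In gCap Eln was at 110.5, 113 and 80.2 CPM in Smad4fl/fl 1, 2 and 3 and 176, 188, 158 and 264 CPM in Smad4iko 1, 2, 3 and 4, so that every Smad4iko library lay above every Smad4fl/fl library. The log2 change was 0.90 ± 0.19 (SE) with edgeR adjusted p = 0.473, and DESeq2 gave an adjusted p of 0.0328. The change stayed between 0.73 and 0.98 when each library was left out, and was 0.77 without Smad4iko 3 and 4. Most gCap of Smad4iko 3 and 4 fell in 1 cluster led by globin genes, which holds 159 of 174 and 170 of 196 of them. In that cluster Eln was at 130.2 CPM in Smad4fl/fl 2 and at 173, 189, 171 and 273 CPM in Smad4iko 1 to 4. In another cluster without that feature it was at 116, 123 and 59.9 CPM in Smad4fl/fl 1 to 3 and at 195, 231 and 149 CPM in Smad4iko 1, 2 and 4, without overlap. The 130.2 CPM above rests on 16 UMIs in 16 cells, and the 59.9 CPM of Smad4fl/fl 3 on 5 UMIs in 16 cells. T cells of all libraries were at most at 1.21 CPM for Eln.

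Venous endothelium had the same direction. Eln was there at 318 and 315 CPM in Smad4fl/fl 1 and 2 and 667, 518 and 711 CPM in Smad4iko 1, 2 and 4, a log2 change of 0.99 ± 0.25 (SE) with edgeR adjusted p = 0.628. Fbln5 was at 249 and 224 CPM in Smad4fl/fl 1 and 2 and 653, 339 and 511 CPM in Smad4iko 1, 2 and 4, a change of 1.06 ± 0.29 (SE) with edgeR adjusted p = 0.714. Emilin1 was at 18.5 and 17.5 CPM in Smad4fl/fl 1 and 2 and 48.7, 43.5 and 42.96 CPM in Smad4iko 1, 2 and 4, a change of 1.28 ± 0.49 (SE) with edgeR adjusted p = 0.969. For these 3 elastic fibre genes the 3 Smad4iko libraries lay above both Smad4fl/fl libraries, and Smad4fl/fl 3 and Smad4iko 3 held too few venous cells to enter. How many of all genes of the class separate in this way was not counted. The Emilin1 levels rest on few UMIs: venous endothelium of Smad4fl/fl 2, for instance, held 285970 UMIs of all genes together. Of all genes tested in the class 4.91% had an unadjusted p under 0.05, as did 4 of 14 matrix genes: these 3 and Col14a1. In Hhip-high cells Eln was at 203 and 61.1 CPM in Smad4fl/fl 1 and 3 and 479, 312 and 162 CPM in Smad4iko 1, 2 and 3. The highest are Smad4iko libraries, but the groups overlap (log2 change 1.12, SE 0.44, edgeR adjusted p = 0.782). Without Smad4fl/fl 1 the change was 2.59 and edgeR's adjusted p 0.00464, with Smad4fl/fl 3 then the lone control, assumed to vary like the others.

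Eln in Adh7-high fibroblasts had the opposite sign. In Adh7-high fibroblasts Eln was at 1206, 2484 and 1016 CPM in the Smad4fl/fl libraries and 795 and 774 CPM in Smad4iko 1 and 2, lower in both (log2 change -1.005, SE 0.37, edgeR adjusted p = 1.00). In adventitial fibroblasts it was at 205, 297 and 379 CPM in Smad4fl/fl 1, 2 and 3 and 366, 323 and 348 CPM in Smad4iko 1, 2 and 4, and in alveolar fibroblasts at 49.5 and 84.6 and 44.1 and 97.2 CPM. The genotypes overlap in both classes, with log2 changes of 0.26 and 0.32 that did not pass. The difference between the genotype effects on Eln was tested within libraries after these values had been seen. The log2 change in gCap exceeded that in Adh7-high fibroblasts by 1.74 ± 0.39 (SE, limma adjusted p = 1.00) over 5 libraries and that in venous endothelium did so by 2.06 ± 0.48 (SE, limma adjusted p = 0.987) over 4, so neither passed over all genes. Of the genes tested 0.025% and 0% were called in these comparisons, and 0 of 22 and 0 of 15 matrix genes. Between adventitial and alveolar fibroblasts limma called 0 of 30 matrix genes and 0% of 3415 genes, with 1 matrix gene at an unadjusted p under 0.05, Lox, at -1.24 ± 0.51 (SE, limma adjusted p = 0.933). Between gCap and aCap it called 0 of 5 and 0% of 5225, with 0 of the 5 at an unadjusted p under 0.05.

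**Figure D5:**
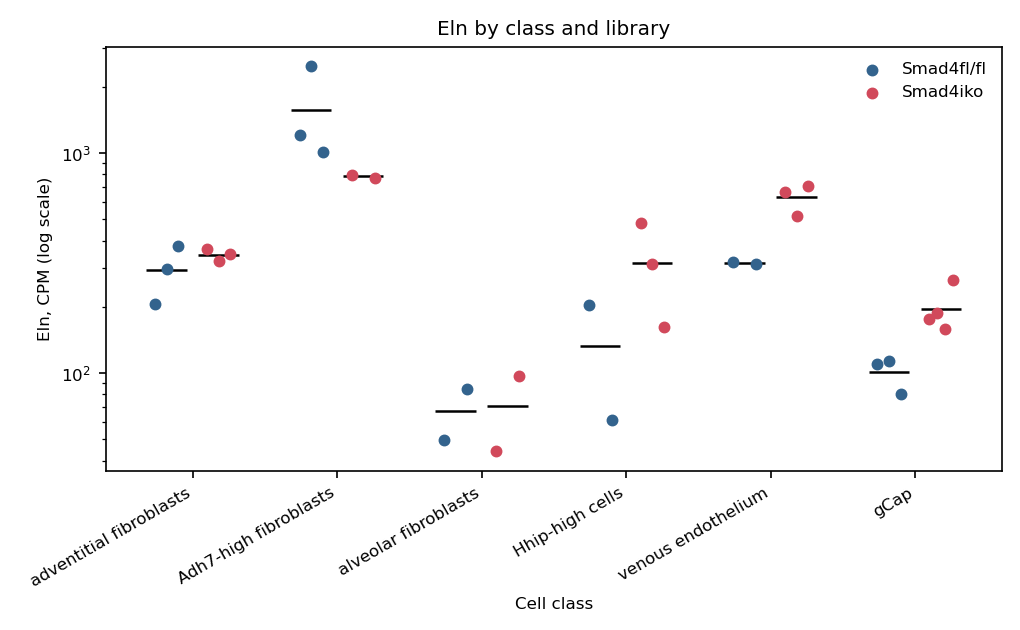
Eln in CPM (log axis) in 6 classes, 1 point per library with at least 15 cells of the class, blue for Smad4fl/fl and red for Smad4iko, with a line at each mean. All red points lie above all blue points in gCap and venous endothelium, all lie below in Adh7-high fibroblasts, and the groups overlap in adventitial and alveolar fibroblasts and in Hhip-high cells.

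Among the remaining fibroblast values, Mfap4 in alveolar fibroblasts was at 3727 and 6273 CPM in Smad4fl/fl 1 and 2 and 2673 and 2671 CPM in Smad4iko 1 and 2, higher in both controls (log2 change -0.84, SE 0.25, edgeR adjusted p = 0.903). Without Smad4fl/fl 1, which carries 654 of the cells, edgeR's adjusted p was 7.53e-08, with the 17 cells of Smad4fl/fl 2 as the lone control. Mgp in the same cells was called as well in that setting, with a log2 change of 0.58 and an adjusted p of 4.01e-11. In adventitial fibroblasts Fbln2 was at 208, 173 and 236 CPM in Smad4fl/fl 1, 2 and 3 and 238, 322 and 316 CPM in Smad4iko 1, 2 and 4, with Smad4iko above by a narrow gap (log2 change 0.49, SE 0.21, edgeR adjusted p = 1.00). The collagens of the same cells did not separate: Col1a1 and Col3a1 had their highest library in Smad4iko 4 and their lowest in Smad4fl/fl 3. In Adh7-high fibroblasts Col6a3 was at 682, 798 and 593 CPM in Smad4fl/fl 1, 2 and 3 and 387 and 514 CPM in Smad4iko 1 and 2 (log2 change -0.63, SE 0.29, edgeR adjusted p = 1.00) and Col5a2 at 388, 399 and 356 CPM in Smad4fl/fl 1, 2 and 3 and 279 and 246 CPM in Smad4iko 1 and 2 (log2 change -0.55, SE 0.28, edgeR adjusted p = 1.00). Both were lower in both Smad4iko libraries. In Hhip-high cells Dcn was at 2022 and 2269.9 CPM in Smad4fl/fl 1 and 3 and 1755, 1170.3 and 1234 CPM in Smad4iko 1, 2 and 3, again without overlap (log2 change -0.60, SE 0.26, edgeR adjusted p = 0.854).

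In the capillaries the collagen IV genes were mostly higher in Smad4iko, without passing. Col4a1 in aCap was at 861, 890.3 and 540.0 CPM in Smad4fl/fl 1, 2 and 3 and 936, 869, 1095 and 1194 CPM in Smad4iko 1, 2, 3 and 4, with overlap (log2 change 0.38, SE 0.19, edgeR adjusted p = 0.454). Col4a2 was similar (log2 change 0.33, SE 0.18, edgeR adjusted p = 0.499), and both genes in gCap had changes of 0.25 and 0.31 with adjusted p of 0.916 and 0.905. The lowest control, Smad4fl/fl 3, has 43 gCap and 62 aCap. The aCap of the genotypes are spread differently over 3 clusters: the one with a median of 3197 UMIs holds 35, 12 and 22 of 312, 53 and 62 cells in Smad4fl/fl 1, 2 and 3 and 66, 34, 76 and 87 of 125, 62, 82 and 96 in Smad4iko 1 to 4, and the others lie in clusters with medians of 7129 and 902. Of all genes tested in aCap, 11.2% had an unadjusted p under 0.05. Levels within these clusters were added after their make-up was seen. Within the first cluster Col4a1 was at 754 and 573 CPM in Smad4fl/fl 1 and 3 and 1197, 899, 1115 and 1223 CPM in Smad4iko 1 to 4. In the cluster with 7129 UMIs it was at 904, 951 and 534 CPM in Smad4fl/fl 1 to 3 and 785 and 872 CPM in Smad4iko 1 and 2, which overlap. Mgp in gCap was at 236, 60.5 and 8.91 CPM in Smad4fl/fl 1, 2 and 3 and 28, 17.7, 16.3 and 56.4 CPM in Smad4iko 1, 2, 3 and 4 (log2 change -1.96, SE 0.62, edgeR adjusted p = 0.665). Mgp in T cells of the same libraries was at 139, 5.05 and 5.10 and 13.9, 8.96, 2.52 and 4.05 CPM, and in both classes Smad4fl/fl 1 was the highest library. The part of free RNA in the Mgp difference was not tested.

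In the other 16 classes, nearly all leukocytes, 0 of 58 tests passed where 0.0212% of all did. At an unadjusted p under 0.05 there were 17, or 29.3%, against 7.06% of all genes. Mgp in 5 classes, Mfap4 and Sparc in 2 each and Bgn in 1 are among them, with Smad4fl/fl 1 far above the other libraries. In alveolar macrophages, for instance, Bgn was at 24.8, 0.976 and 1.23 CPM in Smad4fl/fl 1, 2 and 3 and 1.14, 1.02, 0.522 and 0.764 CPM in Smad4iko 1, 2, 3 and 4. Among the rest, Fn1 in non-classical monocytes was at 0, 19.8 and 9.14 CPM in Smad4fl/fl 1, 2 and 3 and 22.8, 20.2, 67.3 and 227 CPM in Smad4iko 1, 2, 3 and 4, higher in all Smad4iko libraries than in any control (log2 change 2.69, SE 0.90, edgeR adjusted p = 0.597). Col6a3 in NK cells was at 15.2, 7.41 and 4.30 CPM in Smad4fl/fl 1, 2 and 3 and 3.08, 2.58, 0.416 and 0.959 CPM in Smad4iko 1, 2, 3 and 4, lower in all Smad4iko libraries (log2 change -2.03, SE 0.59, edgeR adjusted p = 0.615). Col15a1 in alveolar macrophages, given above, was lower in every Smad4iko library, with a change of -0.78 ± 0.19 (SE) and edgeR adjusted p = 0.475.

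Genes that process, anchor or remodel the same matrix were read in the 7 structural classes from 5 lists. None passed: 0 of 58 tests of laminins, nidogens and other basement membrane genes, 0 of 72 of collagen-processing genes, 0 of 55 of matrix receptors, 0 of 47 of matrix turnover genes and 0 of 15 of other collagens, where 0.0215% of all tests did. At an unadjusted p under 0.05 the counts were 6, 8, 1, 5 and 1, against 5.21% of all structural tests. P4ha1, a subunit of the prolyl hydroxylase that stabilises the collagen helix, had an unadjusted p under 0.05 in 4 classes, with log2 changes of -0.71 in gCap, -0.95 in alveolar fibroblasts, -0.93 in Hhip-high cells and -0.67 in aCap. Serpinh1, the collagen chaperone HSP47, was at 389 ± 4.48 CPM (SD, n = 3) in Smad4fl/fl and 288 ± 43.6 CPM (SD, n = 4) in Smad4iko gCap, without overlap (log2 change -0.44, SE 0.14, edgeR adjusted p = 0.665). In aCap 2 basement membrane genes had every Smad4iko library above every control: Nid1, which bridges laminin and collagen IV (log2 change 0.53, SE 0.18, edgeR adjusted p = 0.332), and Agrn, the heparan sulphate proteoglycan agrin (log2 change 1.00, SE 0.31, edgeR adjusted p = 0.289). Of the 4 basement membrane genes tested in aCap, 2 had an unadjusted edgeR p under 0.05, against 11.2% of all genes tested there. How many of all aCap genes separate without overlap was not counted. In the aCap cluster with a median of 3197 UMIs, Nid1 was at 274 and 195 CPM in Smad4fl/fl 1 and 3 and 290.0, 356, 305 and 333 CPM in Smad4iko 1 to 4, and Agrn at 27.4 and 24.4 and 64.4, 56.7, 48.1 and 56.9 CPM, both without overlap. In the one with 7129, Smad4fl/fl 1 to 3 and Smad4iko 1 and 2 overlapped for both genes, with Nid1 at 213, 222 and 153 and 222 and 204 CPM and Agrn at 35.9, 24.6 and 4.65 and 53.8 and 30.9 CPM. In Adh7-high fibroblasts Lamc3, a laminin gamma chain that is also among the pericyte markers, was at 364 ± 52.7 CPM (SD, n = 3) in Smad4fl/fl and at 178 and 149 CPM in Smad4iko 1 and 2 (log2 change -1.16, SE 0.30, edgeR adjusted p = 1.00).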

How the data were processed

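Dissociated lung cells of 7 mice were measured by droplet-based single-cell RNA sequencing. The authors deposited 1 matrix of raw UMI counts per library, made with Cell Ranger 6.1.1 per the file headers. fastp, UMI-tools and build mm10 are named in the submitters' processing notes, without versions. Here barcodes with at least 300 genes and 600 UMIs and at most 20% mitochondrial UMIs were kept. Doublets were called per library at an expected 6% and removed, 2.44% of the cells. Cells were clustered with scanpy 1.11.5 (2000 variable genes without the 39 matrix genes, 40 principal components, 15 neighbours, leidenalg 0.10.2 at resolution 2), structural cells again with 30 components, and clusters named from marker genes. Counts were summed per class and library, giving CPM where a library held at least 15 cells, so precision follows the cells of the class, which Smad4fl/fl 1 supplies for most stroma. Genotypes were compared on these counts with edgeR 4.0.16 (quasi-likelihood test, TMM, filterByExpr, Python 3.11.15 and R 4.3.3), adjusted by Benjamini and Hochberg over all genes of a class. The threshold was 0.05. Differences between effects used limma 3.58.1 on within-library differences of log2 CPM with a prior count of 2. DESeq2 1.42.0 was an alternative. Ratios between fibroblast classes used CPM + 1. The edgeR step was tested on simulated counts. Exact Poisson intervals at 95% cover counting error only. The mouse is the replicate. Genotype values are named for up to 5 matrix genes per structural class, those with the smallest p at 20 CPM or more and at least 10% of the highest class, and for up to 2 other matrix genes per list and class. The 39 genes and all lists were chosen with earlier results of these data known. The labels do not say what a replicate number marks.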

Additional observations from a re-analysis of the deposited data

Results flagged for a closer look

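In 84 groups of 4 libraries the highest or lowest value was set against the other 3, and 5 stood apart, where chance gives about 1 in 20 groups. Emilin1, the elastin interface glycoprotein, was at 74.9, 68.4, 68.9 and 137 CPM in aCap of Smad4iko 1 to 4, with Smad4iko 4 far above the others. Mfap4 in gCap was at 3.36, 2.54, 3.06 and 14.8 CPM in the same order, again with Smad4iko 4 the highest. Mfap2 in alveolar macrophages was at 0.572, 0.683, 0.653 and 1.27 CPM, where 1.27 CPM belongs to Smad4iko 4. Mgp stood apart in Smad4iko 1 at 14.5 CPM in B cells, against at most 8.31 CPM in the other 3, and at 27.98 CPM in NK cells, against at most 6.89 CPM. Smad4iko 1 also holds the most fibroblasts among the Smad4iko libraries, at 2.84% of kept cells.

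Between pairs of structural classes, 3 genes had every Smad4iko library on the higher side of the controls in one class and on the lower side in the other, and the difference was not tested. Fbln5 differed by 1.37 on the log2 scale between venous endothelium, with a change of 1.06, and adventitial fibroblasts, with -0.31. Ltbp1 differed by 0.59 between venous endothelium, at 0.23, and Hhip-high cells, at -0.36. Mfap5 differed by 0.91 between Hhip-high cells, at 0.48, and alveolar fibroblasts, at -0.44. None of these 6 changes passed edgeR's threshold. The classes had 2 or 3 libraries of each genotype. How many of all genes separate in this way was not counted, so these differences are descriptions only.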

How the results depend on the processing

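The count of calls among the 39 genes, 0 with edgeR, was the result that depended most on the processing. It was 1 with DESeq2 (Eln in gCap), 34 without the filter on low genes (11 of them Mgp, 6 Mfap4, and 32 lower in Smad4iko), 1 with predicted doublets kept and 1 with the 39 genes among the clustering genes, in both cases Mgp in gCap. Leaving out each library gave 0 to 3 calls. Without Smad4fl/fl 1 these were Mgp and Mfap4 in alveolar fibroblasts and Eln in Hhip-high cells. Without Smad4fl/fl 2 they were Npnt (log2 change -4.79) and Mfap4 (log2 change -3.59) in venous endothelium. The lone control was then Smad4fl/fl 1, the library with the highest T cell sum of the 39 genes, 302 CPM. Without Smad4fl/fl 3 or without Smad4iko 1 the call was Mgp in mature dendritic cells, with 1 library left in an arm. The count stayed 0 without TMM, at 30 cells per class and library, at 1000 UMIs per cell, with a covariate for Smad4iko 3 and 4 or for sex, and without Smad4iko 3 and 4, which was added after the data were seen. Of 523 values of 35 results under alternatives, 501 kept direction and side of the threshold, 4 passed it and 18 changed sign. Eln in gCap reached an adjusted p of 7.65e-05 without the filter. Sparc in aCap, at 0.00474, became -0.0167 with DESeq2, -0.0232 without the filter and -0.0158 with the sex covariate. Mfap2 in aCap, at -0.06, became 0.35 with the covariate for Smad4iko 3 and 4, 0.0283 with that for sex and 0.36 without Smad4iko 3 and 4. Ltbp4 in venous endothelium, at 0.35, became -0.28 with doublets kept. Over left-out libraries Mfap2 ranged from -0.0187 to 0.60 in gCap and -0.42 to 0.39 in aCap, Sparc in aCap from -0.20 to 0.28, Col5a1 in Hhip-high cells from -0.85 to 0.00862 and Loxl2 in alveolar fibroblasts from -0.22 to 1.77. An arm left with 1 library is assumed to vary like the others. The cause of these changes was not tested.

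The libraries share replicate numbers only by label. Deviations of same-numbered libraries correlated by 0.181, -0.0813 and 0.106 in gCap and by 0.231, -0.0884 and 0.153 in T cells for numbers 1, 2 and 3, and by 0.155, 0.0295 and 0.107 in aCap and 0.179, -0.106 and 0.199 in alveolar macrophages. Numbers 1 and 3 were over 0.1 in all 4 classes and number 2 in none of them, so the numbers were not used as pairs. With a replicate block the calls were 2, Sparc in adventitial fibroblasts (log2 change -0.88, adjusted p 0.0120) and Mgp in NK cells (log2 change -2.05, adjusted p 0.0371), and Mfap2 in aCap was 0.11. The adventitial side of the fibroblast comparison held 19 genes and 17 to 19 under the alternatives, and the alveolar side 9 and 8 to 9. Depth limits the stromal classes of all libraries but Smad4fl/fl 1: 0 to 22 alveolar fibroblasts in a library leave low genes with few UMIs.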

Other observations

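Cells classed as alveolar epithelium and lymphatic endothelium also held UMIs of matrix genes beyond collagen IV. In AT1 cells of Smad4fl/fl 1, Npnt was at 1067 CPM (95% interval 1005 to 1131) and Ltbp3 at 196 CPM (95% interval 170.4 to 225). In AT2 cells, the surfactant-producing cells, Sparc was at 1078 and 1588 CPM in Smad4fl/fl 1 and 2 and 1160.1 CPM in Smad4iko 4 and Ltbp3 at 93.4 and 88.5 CPM in Smad4fl/fl 1 and 2 and 97.5 CPM in Smad4iko 4. Mgp in the same AT2 cells was at 2193 and 4007 CPM in Smad4fl/fl 1 and 2 and 26.2 CPM in Smad4iko 4, with Smad4iko 4 far below the others. All matrix genes together made up 0.664 and 1.18% of the AT2 UMIs in Smad4fl/fl 1 and 2 and 0.297% in Smad4iko 4. The fibroblast collagens Col1a1 and Col1a2 both reached 10 UMIs in AT2 cells of Smad4fl/fl 1 and 2, but not in those of Smad4iko 4. They also did so in AT1 cells of Smad4fl/fl 1. The part of fibroblast RNA in the AT1 and AT2 levels and in the Mgp difference was not tested. Genotypes were not compared in AT2 cells, where Smad4iko 4 was the only Smad4iko library with a level. Lymphatic endothelium of Smad4fl/fl 1 held Ltbp4 at 1161 CPM (95% interval 1023 to 1311) and Postn at 292 CPM (95% interval 226 to 373), against T cell levels of 6.06 and 1.08 CPM in that library.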
